A study of Rattus norvegicus with 27 samples.

Results

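Acetylcholine is made, packed, released, broken down and sensed by the products of a small set of genes, and 10 of them were followed here through 3 regions of the rat brain: Chat, Slc18a3, Ache, Colq, Chrm1, Chrm2, Chrm3, Chrm4, Chrm5 and Chrna7. Members were the 16 probes, of 41012 non-control probes on the array, whose gene name in the scanner output is that of a listed gene. Probes were matched by gene name and not by a measured value, and the gene list was drawn up with earlier results of these data known. RNA was hybridised to 27 one-color Agilent rat arrays, in 9 groups of 3 pools, and each pool held tissue of 3 male rats aged 10 weeks. Control rats were Wistar animals, for which no injection is described, with a mean blood sugar of 7.64 mmol/l. Streptozotocin-treated (STZ) rats were Wistar animals that received 65 mg/kg of this beta-cell toxin into a tail vein at 6 weeks of age, 4 weeks before tissue was taken. Their mean blood sugar was 26.34 mmol/l, and only treated animals with raised plasma glucose entered that group. Goto-Kakizaki (GK) rats, a separate strain that becomes diabetic without treatment, had a mean of 13.9 mmol/l. GK and control rats thus differ in strain as well as in diabetes, and these cannot be told apart. Hippocampus, prefrontal cortex and striatum were dissected from the same animals of each group, but the labels do not tie a pool of a region to a pool of another.

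Choline acetyltransferase (Chat) joins choline and acetyl-coenzyme A to form acetylcholine, and the vesicular acetylcholine transporter (Slc18a3) loads it into synaptic vesicles. Acetylcholinesterase (Ache) splits it after release, and the collagen-tailed anchor ColQ (Colq) holds the asymmetric form of that enzyme in the extracellular matrix, a role best known at the neuromuscular junction. The receptors M1, M3 and M5 couple through Gq proteins to phospholipase C, M2 and M4 couple through Gi/o proteins and lower cyclic AMP, and the alpha7 subunit (Chrna7) forms a calcium-permeable nicotinic channel. The striatum is supplied by its own cholinergic interneurons, while hippocampus and cortex receive most of their cholinergic fibers from cells of the basal forebrain whose bodies lie outside the dissected tissue.

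The probes behind the differences described here, and those that gave unlike results for the same gene, have the following bases as recorded in the scanner output. Probes are 60 bases long. The whole probe is given for some, and the first 30 bases for the others.
Colq A_44_P141051, first 30 bases: gctgtgcaaagctcttcagtgagcccaagc
Slc18a3 A_42_P737738, first 30 bases: ggtgatcgccaatcacctactgagagcccc
Chrm3 A_42_P455531, first 30 bases: aaagctgcttttgtattcagtgtgaggtgg
Chrm4 A_43_P15933, first 30 bases: acccccaacaaagctccctggcaaactccc
Chrm4 A_44_P144564, whole: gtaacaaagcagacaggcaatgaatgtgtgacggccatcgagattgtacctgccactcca
Chrna7 A_43_P16274, first 30 bases: agaaaaatgactgatcctgaactgtcctgg
Chrna7 A_43_P11579, first 30 bases: tcaaactgcaaacttctctgctagtttctc
Ache A_44_P153789, whole: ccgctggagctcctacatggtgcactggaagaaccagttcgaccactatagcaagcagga
Ache A_44_P515421, whole: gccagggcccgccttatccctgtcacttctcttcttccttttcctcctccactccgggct
The array annotation describes the first Ache probe as the common mRNA and the other as the glycolipid-anchored form of the enzyme. No member probe shares a stretch of 20 bases with any other probe of the array. GC content ran from 36.7% to 60.0%. All 10 genes are in the RefSeq table of assembly GRCr8, where Slc18a3 lies inside Chat and Colq lies on the same chromosome. The genome build behind the array design is not given in the sources used here, so no coordinates are printed.

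Levels are log2 of the scanner's processed signal minus log2 of the 75th percentile of that array, so a level of 0 is the signal of the 75th-percentile probe. Levels of different probes depend on the probe and are not set against each other. A probe entered the tests of a region when at least 2 of the 3 arrays of some group there read it as well above background, and 13 of the 16 member probes did so in every comparison. It passed at a limma adjusted p under 0.05 and was called when the difference also reached 2-fold. The 75th percentile lay between 690.3 and 1527 signal units and 67.4% to 75.3% of probes were well above background. Markers of striatal projection neurons were higher in control striatum than in hippocampus for 8 of 8 genes, and hippocampal markers were lower for 5 of 7. Only 2 of 7 cortical markers were on the array. Control prefrontal cortex held more striatal marker signal than hippocampus, with 6 of 8 genes higher. The arrays lay on 7 slides, and those of slides 5, 6 and 7 deviated together from their group means, with a mean correlation over probes of 0.466, 0.652 and 0.480 against 0.011 to 0.036 on the others. Slides 5, 6 and 7 held all STZ hippocampus pools, all control and STZ prefrontal cortex pools, and control striatum pools 2 and 3. Among the members this touched Chrna7 A_43_P11579, Chat, Ache A_44_P515421 and Chrm2, which on slide 6 lay on average 0.86, 0.77, 0.77 and 0.71 above their group means, and Chrm1 A_44_P545705, which lay there at -0.74. Colq deviated by 0.01 there and by -0.05 to 0.07 over all slides. No slide held both groups of any GK against STZ comparison or of GK against control in prefrontal cortex. The same held for STZ against control in hippocampus and striatum, and for control hippocampus against the other regions. In these comparisons slide and group cannot be told apart.

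Between regions of control rats, 3 of 13 member probes were called in striatum against hippocampus, where 8.98% of all tested probes were, and 6 passed the adjusted p (29.9% of all). The count was 4 of 13 in striatum against prefrontal cortex (8.8% of all), and no further member passed there (25.4% of all). In prefrontal cortex against hippocampus 1 of 13 was called (5.16%) and 4 passed (16% of all). Between GK and control rats, 1 of 13 was called in prefrontal cortex (2.49%) and 1 of 13 in striatum (3.09%), and it was Colq in both. In the hippocampus 0 of 13 were called by limma (1.92% of all), 1 passed the adjusted p, again Colq (5.11% of all), and 1 had an unadjusted p under 0.05. Between STZ and control rats 0 of 13 were called in hippocampus (0.639%), prefrontal cortex (0.98%) and striatum (0.866%), with 2, 1 and 0 probes at an unadjusted p under 0.05. The methods' t-test also called 0 in each of these 3. GK and STZ rats differed by 0 called members in hippocampus (2.76%), 1 in prefrontal cortex (3.53%) and 2 in striatum (4.94%). The hippocampal count of 0 stood beside 2 probes that passed the adjusted p (8.7% of all), and 3 with an unadjusted p under 0.05. The methods' t-test with the 2-fold threshold, adjusted or not, called 0 members in GK hippocampus against control and against STZ. The GK and STZ comparisons use the same control arrays. The median member difference was -0.17, 0.17 and 0.42 for GK against control in hippocampus, prefrontal cortex and striatum, where all probes had -0.04, 0.01 and 0.02. For STZ against control it was -0.23, -0.08 and 0.15, where all probes had -0.01, 0.01 and -0.03.

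**Figure D1:**
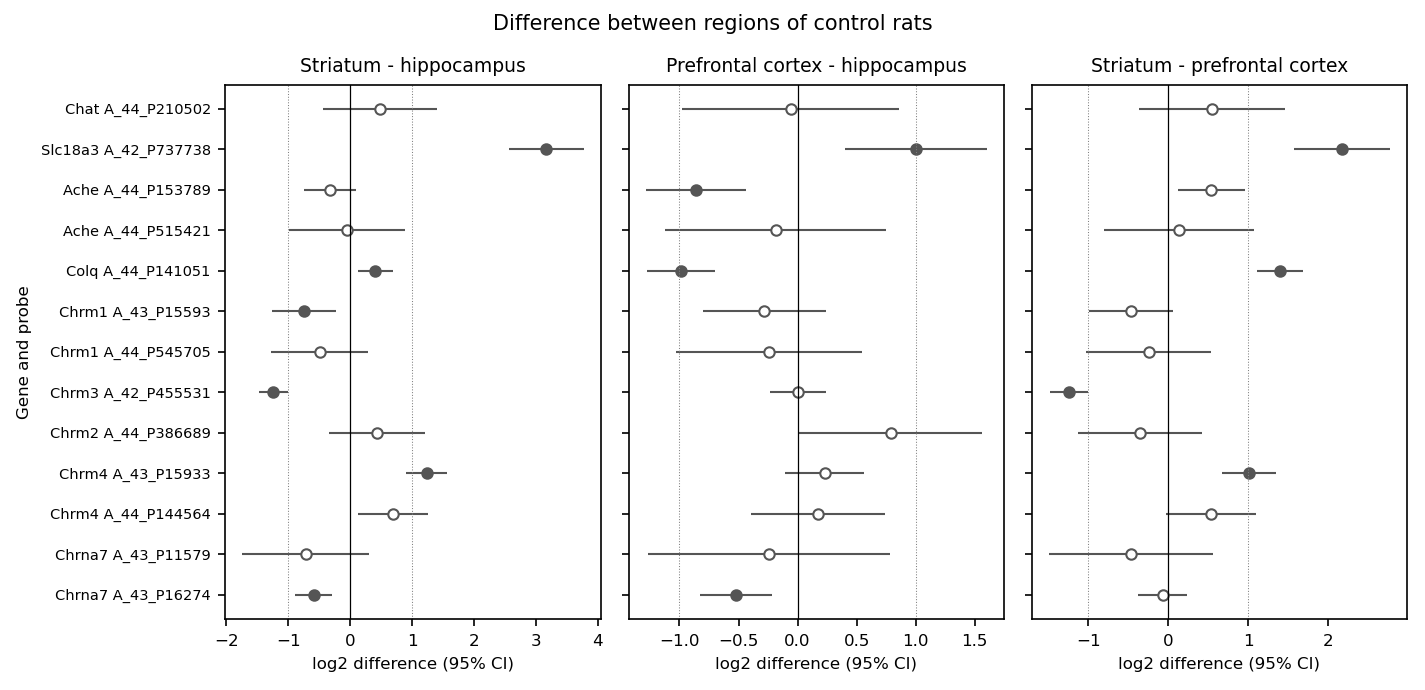
Differences between regions of control rats (log2, horizontal axes, which differ in range between panels) for the 13 tested member probes, with bars for the 95% confidence interval, filled points for an adjusted p under 0.05 and dotted lines at a 2-fold difference. Slc18a3 lies farthest to the right at 3.17 for striatum against hippocampus, and Chrm3 lies at -1.24 in both comparisons with striatum.

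Slc18a3, the vesicular transporter, was ordered by region in all 3 animal groups. In control rats its level was -2.21, -2.11 and -2.28 in the hippocampal pools, -1.27, -1.61 and -0.72 in the prefrontal pools and 0.61, 1.46 and 0.85 in the striatal pools. In GK rats it was -2.33, -2.15 and -2.04, then -1.24, -1.08 and -0.91, then 0.86, 2.40 and 1.01 in the same order of regions. In STZ rats it was -2.74, -2.38 and -2.58, then -1.48, -1.56 and -1.35, then 1.41, 1.31 and 1.38. Every striatal pool lay above every prefrontal pool, and every prefrontal pool above every hippocampal one. Within a region the animal groups overlapped, with exceptions. The 3 STZ hippocampal pools lay just below the other 6, and the GK prefrontal pools lay above the STZ ones, with control pools spanning both. Control striatum exceeded control hippocampus by 3.17 (SE 0.29, 9.02-fold, adjusted p = 2.7e-08) and control prefrontal cortex by 2.17 (SE 0.29, 4.50-fold, adjusted p = 5.7e-06). Within slide 5 the striatum stood 3.06 above prefrontal cortex, and within slide 6 it stood 1.57 above (adjusted p = 0.05), each from 1 array a group whose spread was taken from the other groups. In tissue RNA, more cells of a kind and more RNA in each cannot be told apart. Markers of cholinergic neurons other than members moved with it, 5 of 6 being higher in control striatum than in hippocampus, and their summed signal was 4.37 to 5.87 times the 75th percentile in control striatum against 0.96 to 2.13 in hippocampus.

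Prefrontal cortex exceeded hippocampus in Slc18a3 by 1.00 (SE 0.29, adjusted p = 0.020), which is at the 2-fold limit. Without control prefrontal pool 3 the difference was 0.76 (adjusted p = 0.13), and without control hippocampal pool 1 or 3 it was 0.99 or 0.96 (adjusted p = 0.057 and 0.063). Prefrontal pool 3 had the highest Slc18a3 level of its group. The summed level of striatal markers was 10.1 to 32.4 in control prefrontal cortex, 4.51 to 5.08 in control hippocampus and 220.3 to 344.0 in control striatum. Of the 6 cholinergic neuron markers, 1 was higher and 1 lower in control prefrontal cortex than in hippocampus, with sums of 0.71 to 1.20 against 0.96 to 2.13. The part of these cells in the prefrontal value was not tested. No difference of Slc18a3 between animal groups passed. GK minus control was 0.03, 0.12 and 0.45 in hippocampus, prefrontal cortex and striatum, with 95% intervals of -0.57 to 0.63, -0.48 to 0.72 and -0.15 to 1.05. STZ minus control was -0.37, -0.26 and 0.39, with intervals of -0.97 to 0.23, -0.86 to 0.34 and -0.21 to 0.99.

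Chat, whose enzyme makes acetylcholine, was dim and was well above background on 16 of 27 arrays. In control rats its levels were -5.26, -5.37 and -5.39 in hippocampus, -5.72, -5.69 and -4.79 in prefrontal cortex and -4.42, -5.86 and -4.28 in striatum. The GK pools had -5.37, -6.15 and -5.38, then -5.65, -4.82 and -4.89, then -4.32, -4.22 and -4.48. The STZ pools had -5.96, -5.90 and -4.55, then -6.19, -5.75 and -4.49, then -4.80, -5.16 and -5.16. Control striatum held both the lowest of the 9 control values, on slide 5, and the highest, on slide 6. Both STZ pools on slide 6 stood more than 1 log2 unit above the other pools of their group. No Chat difference passed, and striatum against hippocampus in control rats was 0.49 (95% interval -0.43 to 1.40, adjusted p = 0.43). In GK rats the 3 striatal pools lay above every prefrontal and hippocampal pool, an order that was not tested within GK rats.

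**Figure D2:**
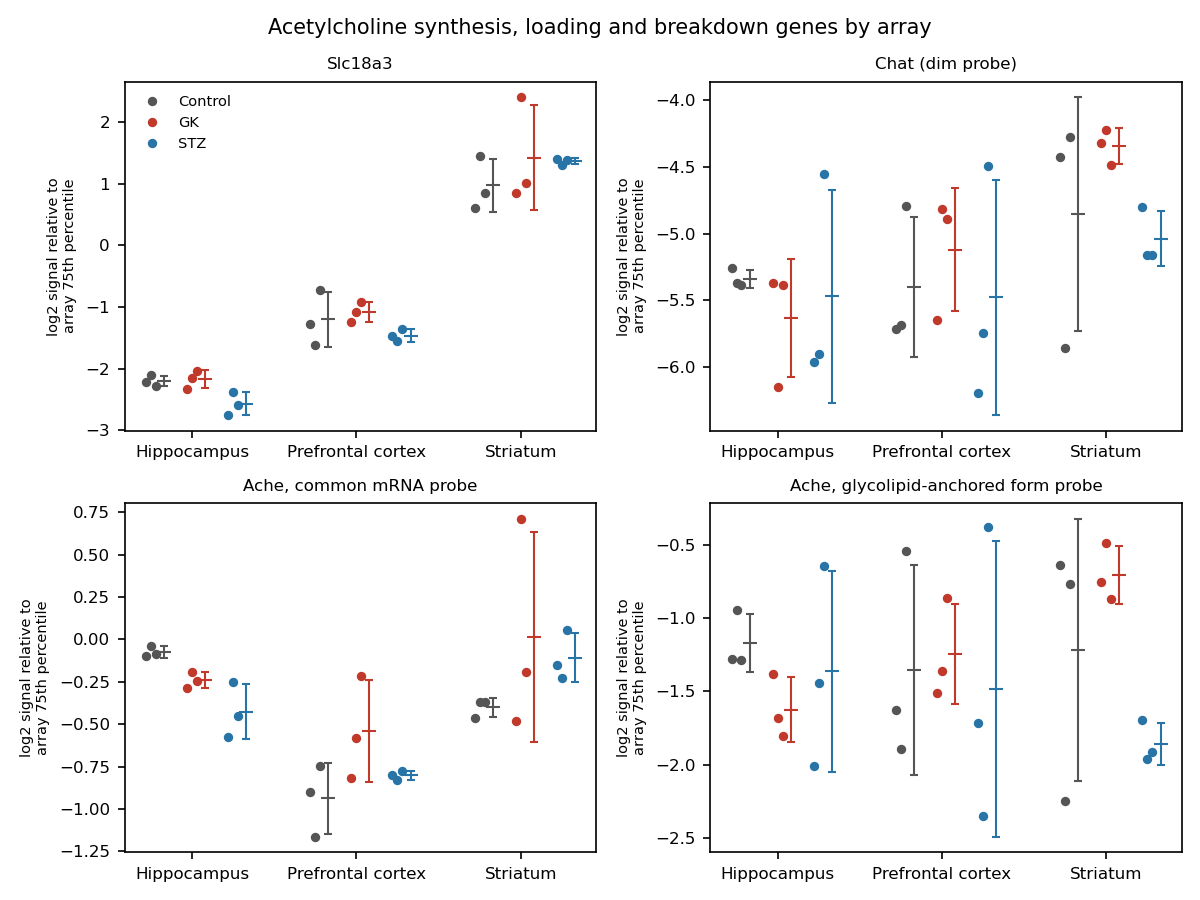
Level (log2 signal relative to the array's 75th percentile, vertical axes) of Slc18a3, Chat and the 2 tested Ache probes, with a point for each pool, grouped by region and colored by animal group, and bars for the mean and SD of 3 pools. Slc18a3 separates the 3 regions in every animal group, while Chat spreads over more than 1 unit within control striatum.

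Acetylcholinesterase differed between regions on its common mRNA probe, A_44_P153789. Control levels were -0.10, -0.04 and -0.09 in hippocampus, -0.90, -1.16 and -0.75 in prefrontal cortex and -0.46, -0.37 and -0.37 in striatum. The 3 regions did not overlap, and their order was hippocampus, striatum, prefrontal cortex. Prefrontal cortex was lower than hippocampus by 0.86 on the log2 scale (-0.86, SE 0.20, adjusted p = 0.0046), a 1.82-fold difference. Striatum stood 0.54 above prefrontal cortex (adjusted p = 0.057) and -0.33 from hippocampus (adjusted p = 0.24), and neither passed. In GK rats the levels were -0.28, -0.19 and -0.24 in hippocampus, -0.82, -0.58 and -0.22 in prefrontal cortex and -0.48, 0.71 and -0.19 in striatum. STZ rats had -0.58, -0.25 and -0.45, then -0.80, -0.83 and -0.77, then -0.15, -0.23 and 0.05. GK striatal pool 2 was the highest of all 27 values. That pool was also the highest for Slc18a3. Its array had the lowest 75th percentile (690.3) and the lowest share of probes well above background (67.4%) of the 27. GK minus control was 0.40 in prefrontal cortex (95% interval -0.02 to 0.82, adjusted p = 0.26) and 0.41 in striatum (-0.01 to 0.84, adjusted p = 0.19), and STZ minus control in hippocampus was -0.35 (-0.78 to 0.07, adjusted p = 0.48).

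The probe for the glycolipid-anchored form, A_44_P515421, varied more within groups, with levels of -0.64, -2.25 and -0.77 in the control striatal pools. In striatum the GK pools had -0.75, -0.49 and -0.87 and the STZ pools had -1.69, -1.96 and -1.91, so the models did not overlap. Their difference of 1.15 (SE 0.45) had an adjusted p of 0.079. No comparison of this probe passed, and its prefrontal against hippocampal difference in control rats was -0.18 (95% interval -1.12 to 0.75). The last Ache probe, A_44_P508355, was not well above background on any of the 27 arrays and was not tested.

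Colq, the collagen tail that anchors acetylcholinesterase, was the only member with a GK against control difference that passed, and it was lower in GK rats in every region. Its hippocampal levels were -2.78, -2.92 and -3.05 in control, -3.40, -3.57 and -3.66 in GK and -3.00, -2.90 and -2.83 in STZ rats. In prefrontal cortex they were -3.85, -3.85 and -4.00, then -5.01, -4.99 and -5.12, then -4.00, -3.94 and -4.16. In striatum they were -2.39, -2.80 and -2.33, then -4.28, -4.23 and -4.76, then -2.42, -2.21 and -2.45. In each region the 3 GK pools lay below all 6 Wistar pools, and control and STZ pools overlapped. Ordered from high to low, the striatum and hippocampus of Wistar rats came first and overlapped for control rats, followed by GK hippocampus, Wistar prefrontal cortex, GK striatum and GK prefrontal cortex, each of these without overlap with the next. The striatum thus held the highest Colq of the regions in Wistar rats, while in GK rats every striatal pool lay below every hippocampal one.

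**Figure D3:**
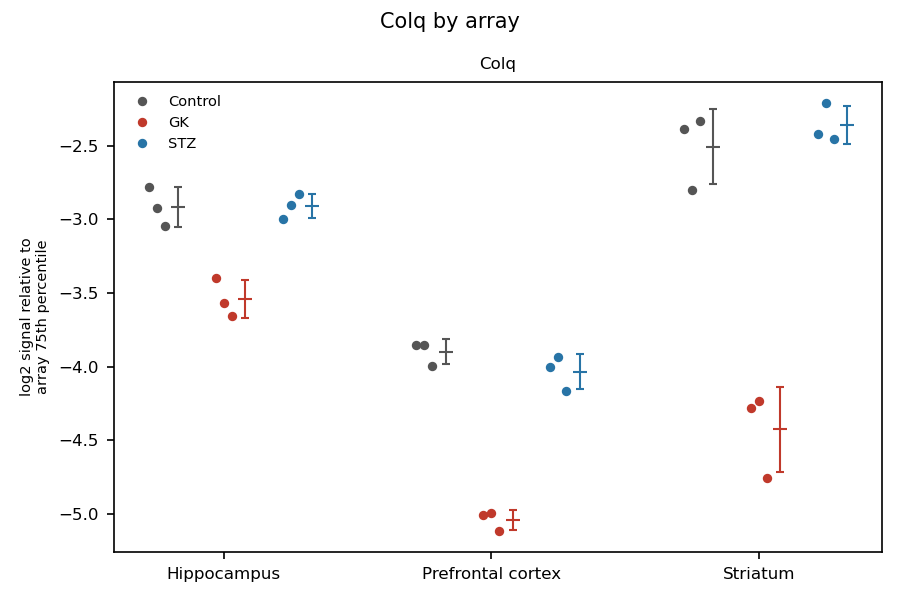
Colq level (log2 signal relative to the array's 75th percentile, vertical axis) in each pool, by region and animal group, with the mean and SD of 3 pools. The GK pools lie below all control and STZ pools of their region, with means of -3.54 in hippocampus, -5.04 in prefrontal cortex and -4.42 in striatum.

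GK minus control was -0.63 in hippocampus (SE 0.14, 95% interval -0.91 to -0.34, 1.54-fold lower, adjusted p = 0.0075), with an adjusted p of 0.052 without GK pool 3 and 0.053 without control pool 1. It was -1.14 in prefrontal cortex (95% interval -1.43 to -0.85, 2.20-fold lower, adjusted p = 9.5e-06) and -1.92 in striatum (-2.20 to -1.63, 3.78-fold lower, adjusted p = 5.3e-09). The effect was larger in striatum than in hippocampus by 1.29 (SE 0.20, 95% interval 0.88 to 1.70, adjusted p = 0.0035), a difference that 0.347% of probes met. It was not shown to differ between hippocampus and prefrontal cortex (0.51, adjusted p = 0.30) or between prefrontal cortex and striatum (0.78, adjusted p = 0.11). Over all members, 0 of 13 were called for these last 2 differences by limma (0.19% and 0.118% of all probes), with 1 and 2 at an unadjusted p under 0.05. STZ minus control was 0.01, -0.13 and 0.15 in hippocampus, prefrontal cortex and striatum, with 95% intervals of -0.28 to 0.29, -0.42 to 0.15 and -0.14 to 0.43. GK minus STZ was -0.63 (adjusted p = 0.0051), -1.01 (adjusted p = 3.9e-05) and -2.06 (4.18-fold lower, adjusted p = 1.6e-09). With the replicate number as a block these adjusted p values were 0.073, 0.066 and 0.00089. In control rats striatum stood 0.41 above hippocampus (adjusted p = 0.029, but 0.072 to 0.12 on leaving out hippocampal pool 2 or 3 or striatal pool 1 or 3) and 1.39 above prefrontal cortex (2.63-fold, adjusted p = 1.1e-07). Prefrontal cortex stood 0.98 below hippocampus (-0.98, adjusted p = 2.1e-05).

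GK and control striatum shared slide 4, and there the Colq difference was -2.04 (adjusted p = 1.8e-06, from control pool 1). Hippocampal pools shared slide 2, with -0.49 (adjusted p = 0.60, from GK pool 1). In prefrontal cortex no slide held both groups, so slide and group cannot be told apart there. Slide as a random block cannot separate them either. It used a correlation within slides of 0.011 and left the limma difference at -1.14 (adjusted p = 1e-05). With normexp background correction the prefrontal difference was -0.33 (adjusted p = 1.0), and with the replicate number as a block the adjusted p was 0.061 in prefrontal cortex and 0.14 in striatum. Of 5 oligodendrocyte markers, 1, 2 and 1 passed the adjusted p as lower in GK hippocampus, prefrontal cortex and striatum. There 1, 1 and 1 were called, against 1.92%, 2.49% and 3.09% of all tested probes. Their median difference was -0.43, -0.43 and -0.09. Their summed level was 194.4 to 214.2 in GK against 234.6 to 255.7 in control hippocampus, 91.5 to 110.8 against 123.0 to 153.4 in prefrontal cortex, and 310.6 to 361.0 against 365.4 to 394.3 in striatum. In STZ hippocampus, prefrontal cortex and striatum that sum was 229.9 to 276.8, 100.6 to 108.0 and 321.3 to 348.9. The part of these cells in the Colq result was not tested. Colq rests on 1 probe, and the study had itself listed the gene for GK prefrontal cortex from these arrays, so its direction there is not independent evidence.

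**Figure D4:**
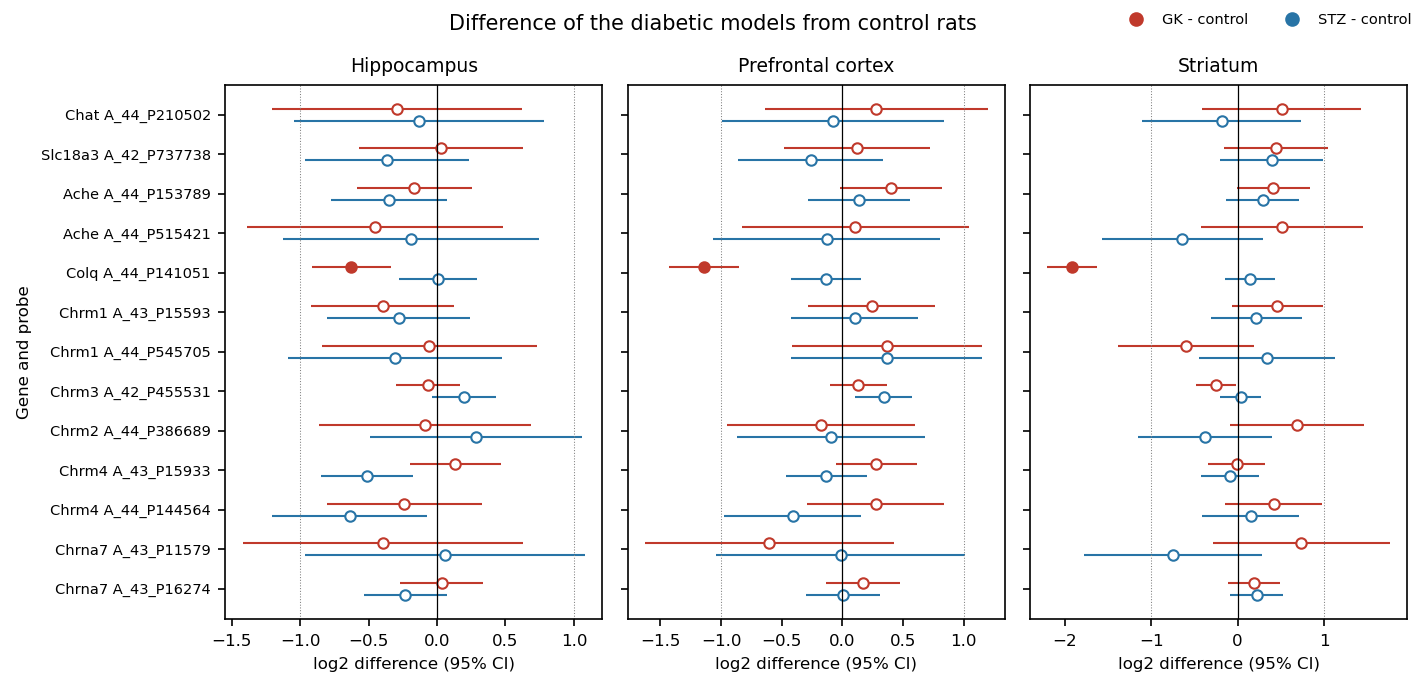
Differences of GK and STZ from control rats (log2, horizontal axes, which differ in range between panels) in each region for the 13 tested member probes, with 95% confidence intervals, filled points for an adjusted p under 0.05 and dotted lines at a 2-fold difference. The filled points are those of Colq in GK rats, at -0.63, -1.14 and -1.92.

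Among the Gq-coupled receptors, Chrm3 (M3) had the tightest pools and differed by region. Its control levels were 4.91, 4.82 and 4.71 in hippocampus, 4.68, 4.90 and 4.86 in prefrontal cortex and 3.56, 3.72 and 3.43 in striatum. GK rats had 4.78, 4.81 and 4.64, then 4.93, 4.92 and 4.99, then 3.15, 3.51 and 3.29. STZ rats had 4.99, 5.16 and 4.87, then 5.08, 5.28 and 5.10, then 3.57, 3.75 and 3.49. Every striatal pool lay below every pool of the other regions, and hippocampus and prefrontal cortex of control rats overlapped. Control striatum was lower than hippocampus (-1.24, SE 0.11, 2.36-fold lower, adjusted p = 2.7e-08) and lower than prefrontal cortex (-1.24, adjusted p = 3.2e-08). Within slides 5 and 6 the latter difference was -1.18 and -1.43. Both calls held under every alternative tried for them. The 3 STZ prefrontal pools lay above the control pools, by 0.34 (95% interval 0.11 to 0.58), and this did not pass (unadjusted p = 0.0065, adjusted p = 0.11). With these pools paired by replicate number, which also pairs their slides, the adjusted p was 0.20. GK minus control in striatum was -0.25 (-0.49 to -0.02, adjusted p = 0.15).

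Chrm1 (M1) was read by a pair of probes. On A_43_P15593 control levels were -1.30, -1.27 and -1.36 in hippocampus, -1.55, -1.97 and -1.26 in prefrontal cortex and -1.65, -2.78 and -1.74 in striatum. Striatum lay below hippocampus without overlap, by 0.75 (-0.75, SE 0.25, adjusted p = 0.029), and striatal pool 2, on slide 5, was far below the rest. Without that pool the difference was -0.39 (adjusted p = 0.20), and without hippocampal pool 1, 2 or 3 the adjusted p was 0.058 to 0.076. With normexp background correction the difference was 0.010. In hippocampus the GK pools, at -1.70, -1.70 and -1.74, lay below the control pools and within the STZ range of -1.85 to -1.28, with a GK minus control difference of -0.40 (95% interval -0.92 to 0.13, adjusted p = 0.51). The other probe, A_44_P545705, which the annotation ties to a partial M1 mRNA, gave -0.49 for striatum against hippocampus (-1.27 to 0.30, adjusted p = 0.35). It differed in sign from the first for GK minus control in striatum, -0.60 against 0.46, and neither passed. Chrm5 (M5) was not well above background on any of the 27 arrays and was not tested.

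Among the Gi-coupled receptors, Chrm4 (M4), which is carried by striatal projection neurons, had the opposite region order to Chrm3. On A_43_P15933 control levels were 2.02, 2.16 and 2.19 in hippocampus, 2.27, 2.30 and 2.50 in prefrontal cortex and 3.19, 3.72 and 3.18 in striatum. GK rats had 2.30, 2.14 and 2.34, then 2.50, 2.53 and 2.88, then 3.32, 3.71 and 3.02. STZ rats had 1.58, 1.75 and 1.51, then 2.15, 2.15 and 2.37, then 3.38, 3.23 and 3.23. Striatal pools were the highest in every animal group, and the 3 STZ hippocampal pools were the lowest of all 27. Control striatum stood 1.24 above hippocampus (SE 0.16, 2.36-fold, adjusted p = 4.2e-06) and 1.01 above prefrontal cortex (2.01-fold, adjusted p = 5.7e-05). Within slide 5 the latter was 1.42, and within slide 6 it was 0.68 (adjusted p = 0.17). Without striatal pool 2 or prefrontal pool 1 or 2 it was 0.83, 0.96 and 0.98 and thus under 2-fold. GK hippocampus stood 0.65 above STZ hippocampus (SE 0.16, 1.56-fold, adjusted p = 0.013, but 0.053 to 0.064 without GK pool 1 or 3 or STZ pool 3). With the replicate number as a block its adjusted p was 0.074. STZ minus control there was -0.51 (95% interval -0.85 to -0.18, adjusted p = 0.10). No slide held these STZ pools together with GK or control hippocampal pools. Choroid plexus markers also differed between GK and STZ hippocampus, 5 of 5 being higher in GK. Their summed level was 20.9 to 155.7 in GK, 3.17 to 3.56 in STZ and 2.59 to 124.9 in control hippocampus. Striatal markers summed to 5.69 to 6.22, 3.93 to 4.27 and 4.51 to 5.08 in GK, STZ and control hippocampus, with 2 of 8 passing between GK and STZ. Of other lists, 2 thalamic or habenular markers passed as higher in GK than in STZ, and 2 oligodendrocyte and 2 cholinergic markers as lower. Astrocytes and meninges had 1 higher each, and microglia, hippocampal neurons and cortical neurons 1 lower each. The part of any of these cells in the Chrm4 value was not tested.

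The second Chrm4 probe, A_44_P144564, pointed the same way between regions without passing. Its control levels were -3.80, -3.75 and -3.48 in hippocampus, -3.53, -3.90 and -3.08 in prefrontal cortex and -2.66, -3.75 and -2.51 in striatum. Striatal pools 1 and 3 were above all others, and pool 2, on slide 5, was at the hippocampal level. Striatum against hippocampus was 0.70 (SE 0.27, adjusted p = 0.057) and against prefrontal cortex 0.53 (adjusted p = 0.17). STZ hippocampus had -4.33, -4.70 and -3.90, all below control, with a difference of -0.64 (95% interval -1.20 to -0.07, adjusted p = 0.27).

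Chrm2 (M2), an autoreceptor on many cholinergic terminals, was dim and was well above background on 18 of 27 arrays. In striatum its levels were -4.78, -5.97 and -4.36 in control, -4.42, -4.26 and -4.39 in GK and -5.28, -5.61 and -5.34 in STZ rats. On all 3 STZ striatal arrays it was not well above background, so that group has only an upper bound. For STZ, the higher of the measured signal and the lowest signal well above background was taken on each array. Against that level the GK mean was 2.05-fold and the control mean 1.28-fold higher. These are lower limits for the means of these pools and carry no sampling error. Control pool 2 lay below all 3 STZ pools. On the measured signal the limma adjusted p was 0.056 for GK and 0.60 for control against STZ. Neither passed. Prefrontal cortex against hippocampus in control rats was 0.79 (95% interval 0.01 to 1.56, adjusted p = 0.18).

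**Figure D5:**
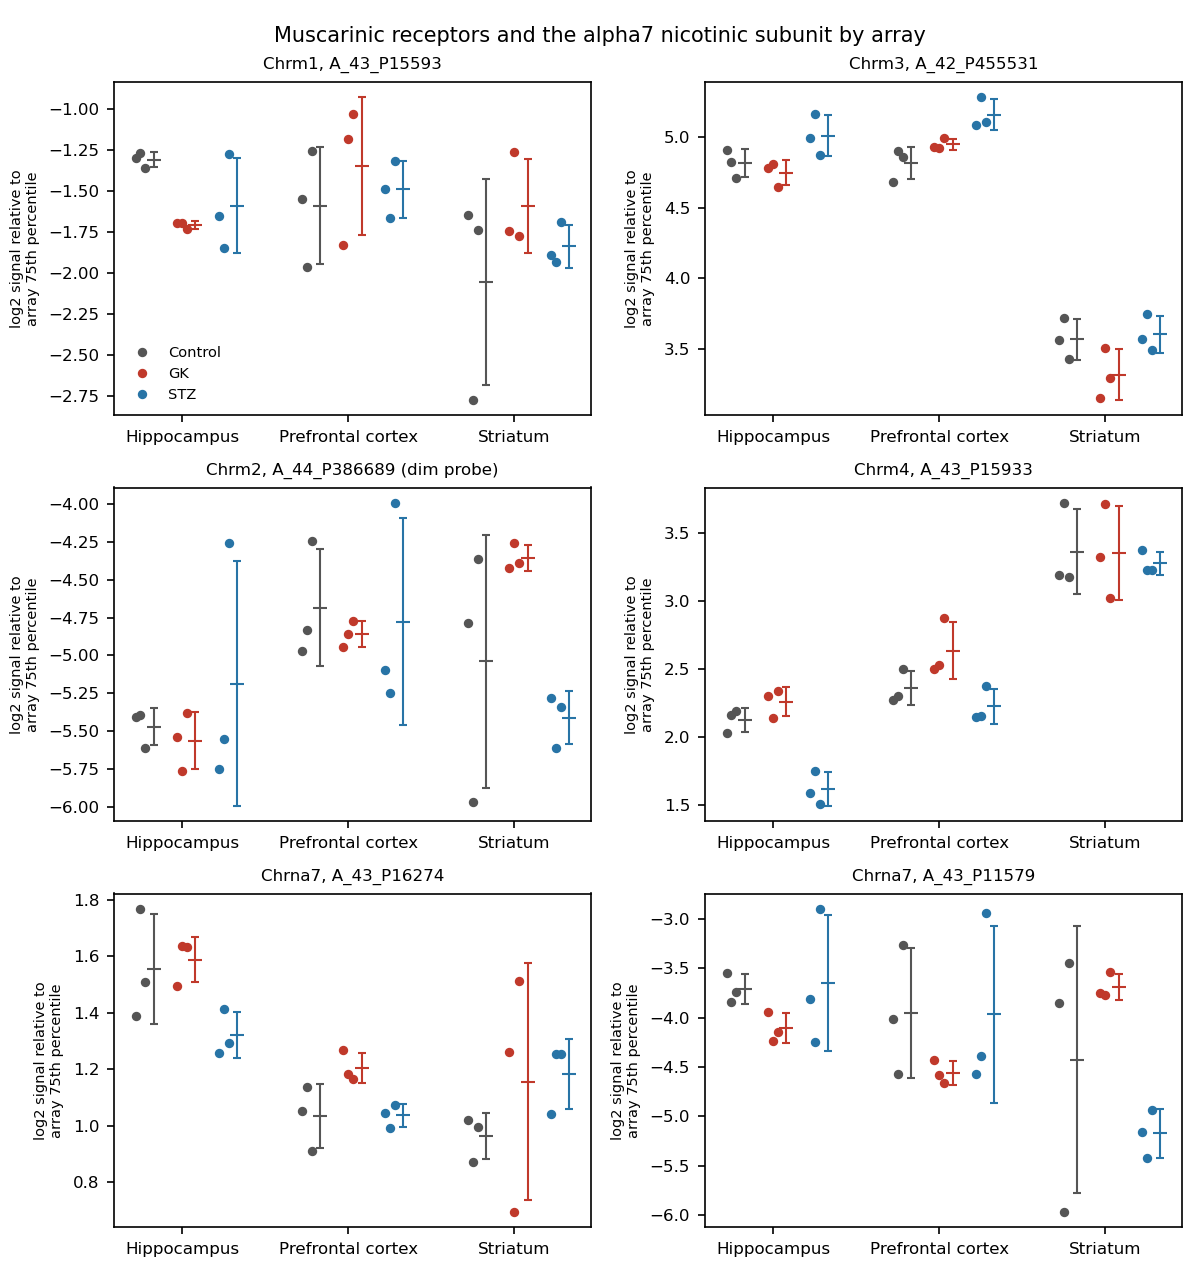
Level (log2 signal relative to the array's 75th percentile, vertical axes) of Chrm1, Chrm3, Chrm2, Chrm4 and 2 Chrna7 probes in each pool, by region and animal group, with the mean and SD of 3 pools. Chrm3 is lowest and Chrm4 highest in striatum, and the Chrna7 probes disagree between GK and STZ striatum.

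Chrna7, the alpha7 nicotinic subunit, gave unlike results on its probes. On A_43_P16274 control levels were 1.39, 1.77 and 1.51 in hippocampus, 1.05, 1.14 and 0.91 in prefrontal cortex and 1.02, 0.87 and 1.00 in striatum. All hippocampal pools lay above the other regions, which overlapped. Striatum was lower than hippocampus by 0.59 (-0.59, SE 0.15, 1.51-fold lower, adjusted p = 0.0038) and prefrontal cortex by 0.52 (-0.52, adjusted p = 0.016, but 0.11 without hippocampal pool 2 and 0.079 without prefrontal pool 3). In striatum this probe read 1.26, 0.69 and 1.51 in GK and 1.04, 1.25 and 1.25 in STZ rats, a difference of -0.03 (95% interval -0.33 to 0.28). On A_43_P11579 the same pools read -3.75, -3.77 and -3.54 in GK and -5.16, -5.42 and -4.93 in STZ rats, and control striatum had -3.85, -5.97 and -3.45. GK stood 1.48 above STZ there (SE 0.49, 2.80-fold, adjusted p = 0.046) without overlap, and control pools spanned both. This call was lost on leaving out any 1 of these 6 pools, with adjusted p values of 0.059 to 0.14. The GK and STZ striatal pools shared no slide. No difference between a model and control rats passed on either probe, and those on A_43_P16274 ran from -0.23 to 0.22. The last probe, A_44_P288142, was well above background on 1 of 27 arrays and was not tested.

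Other genes of acetylcholine use, from a list of 20 of which 18 are on the array and 13 or 14 were tested, were read beside the members. Slc5a7, the choline transporter of cholinergic terminals, read -1.51, -1.43 and -2.05 in control and -2.82, -3.12 and -2.83 in GK hippocampus. In prefrontal cortex it read -2.13, -1.91 and -1.96 in control, -3.09, -3.54 and -3.61 in GK and -2.59, -3.01 and -2.25 in STZ rats. GK pools were below control in both regions without overlap, by 1.26 in hippocampus (-1.26, SE 0.24, adjusted p = 0.0022) and by 1.41 in prefrontal cortex (-1.41, adjusted p = 0.00053). In striatum the GK mean was -0.18 and the control mean -0.16, and STZ striatum stood 1.03 above control (adjusted p = 0.022). This last call was lost in 9 of 23 alternatives, among them normexp, the replicate block (adjusted p = 0.36), array weights and leaving out control pool 2, STZ pool 1 or STZ pool 2. The GK call was lost in hippocampus within slide 2, in prefrontal cortex with normexp (-0.95) and the replicate block (adjusted p = 0.090), and in both with the methods' t-test after adjustment. Slc5a7 is also 1 of the 6 cholinergic neuron markers, and the 1 marker called lower in GK hippocampus was Slc5a7 itself. In GK prefrontal cortex 3 were called lower, Slc5a7 again among them. The marker sum, which includes Slc5a7, was 0.427 to 0.436 there against 0.713 to 1.20 in control. Striatal markers also fell there, 3 of 8 being called (2.49% of all tested probes were), with a sum of 12.8 to 15.4 against 10.1 to 32.4. The part of these cells in the Slc5a7 result was not tested.

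Chrna5, the accessory alpha5 nicotinic subunit, was higher in STZ than in control rats in every region. It read -3.22, -2.77 and -2.80 in control and -1.25, -1.87 and -1.52 in STZ hippocampus. In prefrontal cortex it read -2.94, -2.74 and -3.00 against -1.19, -1.14 and -1.33, and in striatum -3.92, -3.69 and -4.09 against -1.73, -2.0 and -1.97. No pools overlapped, and the differences were 1.38 (SE 0.17, adjusted p = 0.00011), 1.68 (adjusted p = 1e-05) and 2.0 (4.01-fold, adjusted p = 5e-07). GK Chrna5 lay below STZ by 1.56, 1.76 and 2.49 (-1.56, -1.76 and -2.49). No slide held both STZ and control pools of hippocampus or striatum, or both GK and STZ pools of any region. Slide and animal group cannot be told apart in those comparisons. With normexp background correction and with the methods' t-test after adjustment none of the 3 STZ differences was called, and with normexp the striatal difference was 0.68. The replicate block also ended the call in hippocampus and striatum (adjusted p = 0.19 and 0.31), as did slide 5 taken alone in prefrontal cortex. The GK and STZ differences were likewise not called with normexp or that t-test, nor in prefrontal cortex with the replicate block (adjusted p = 0.050). Of the tested genes of this list, 1, 1 and 0 were called lower and 0 higher in GK hippocampus, prefrontal cortex and striatum, and 1, 1 and 2 were called higher and 0 lower in STZ. Of all tested probes, 1.92%, 2.49% and 3.09% were called in GK and 0.639%, 0.98% and 0.866% in STZ. The remaining genes called between control regions included Chrna4, the alpha4 nicotinic subunit, which was higher in prefrontal cortex than in hippocampus by 1.63 (adjusted p = 4.4e-05) and lower in striatum than in prefrontal cortex (-2.31, adjusted p = 2.5e-07).

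Of 25 genes that act downstream of muscarinic receptors, all tested, 1, 3 and 1 were called in GK hippocampus, prefrontal cortex and striatum and 1, 2 and 1 in STZ. Of all tested probes, 1.92%, 2.49% and 3.09% were called in GK and 0.639%, 0.98% and 0.866% in STZ. Kcnq3, a subunit of the M-type potassium channel that muscarinic receptors close, was higher in GK rats by 1.71, 1.18 and 1.29 (adjusted p = 2.5e-05, 0.0014 and 0.00049). In STZ rats it was higher by 1.20 in hippocampus and 1.11 in prefrontal cortex (adjusted p = 0.0043 and 0.0087), measured against the same control arrays. The replicate block ended the Kcnq3 call in GK prefrontal cortex and striatum and in STZ hippocampus and prefrontal cortex (adjusted p = 0.15, 0.16, 0.18 and 0.091). Leaving out GK prefrontal pool 1 or STZ prefrontal pool 3 ended the call there, and so did normexp in STZ hippocampus and prefrontal cortex. In STZ prefrontal cortex the Kcnq3 call also ended without slide 6, with only that region fitted, and within slide 5, 6 or 7 alone, each from 1 array a group. Slide as a fixed block ended it in GK striatum, and fitting only the groups compared ended it in GK prefrontal cortex and striatum. The methods' t-test after adjustment ended every Kcnq3 call. Kcnq5, another such subunit, was higher in STZ striatum by 1.15 (adjusted p = 0.00074) and lower in GK than in STZ striatum (-1.88, adjusted p = 2.4e-07) and prefrontal cortex (-1.48, adjusted p = 6.3e-06). Prkcc, a protein kinase C, was higher in GK prefrontal cortex by 1.04 (adjusted p = 0.00040), and Rgs9, a striatal regulator of G proteins and one of the striatal markers, was lower there (-1.62, adjusted p = 0.0092) and in STZ prefrontal cortex (-1.76, adjusted p = 0.015). The replicate block ended these 3 calls (adjusted p = 0.088, 0.28 and 0.19) and that of Kcnq5 in STZ striatum (adjusted p = 0.34). Leaving out 1 pool ended them for Prkcc without GK pool 3 or control pool 2, for Rgs9 in GK without control pool 3, and for Rgs9 in STZ without control pool 1 or 3 or STZ pool 1 or 3. Between control striatum and hippocampus 5 of 25 were called higher and 3 lower, where 8.98% of all tested probes were called. Among the higher were Adcy5, the striatal adenylyl cyclase (3.49), and Gnal, the olfactory-type G alpha subunit that stimulates it (2.86). Among the lower were Kcnj6, a G protein-gated potassium channel (-3.91), and Prkcc (-2.41).

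The genes whose levels ran most like each member over the 27 arrays were taken from 10715 probes well above background on at least 14 arrays. This likeness is a description over arrays that share regions and slides. Slc18a3 ran with Rasd2, Scn4b and Phactr1 (each r = 0.98) and Chrm3 with Adra1d (0.98), Kcns3 (0.98) and Nrn1 (0.97). Chrm4 A_43_P15933 ran with Asb2 (0.97), Wfdc2 (0.96) and Smarcd3 (0.96), while A_44_P144564 ran with Dpysl5 (0.95). Colq ran with Sult1d1 (0.92), Gpr155 (0.92) and Nek7 (0.89). The common Ache probe ran with Cox6b2 (0.90), Shmt1 (0.88) and Diablo (0.87), and Chrna7 A_43_P16274 with Pak3 (0.89), Slc24a2 (0.87) and Unc5c (0.87). Chat ran with Pla2g1b, Ttn and Slc6a4 (each 0.91), Chrm2 with Cnnm4 (0.92), Abi3 (0.90) and Hdac5 (0.90), and Chrna7 A_43_P11579 with Adrb3 (0.86), Slc24a3 (0.83) and Dhh (0.83). Those 3 probes were among the 4 that lay highest above their group means on slide 6. The pair of Chrm1 probes had no gene in common among their nearest 3, which were Cog7, Grin2d and Gga3 for A_43_P15593 and Foxn1, Cacna1s and Pck1 for A_44_P545705.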

How the data were processed

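Cy3-labeled cRNA of 27 pools was hybridised to one-color Agilent rat arrays and read with Feature Extraction 9.1, per the labels. The deposited files hold scanner intensity per spot, and the processed signal is already background-corrected by the authors' scanner software. The deposited value table held the same intensity values. The authors' GeneSpring normalization to control medians was not used here. From the intensities, log2 signal minus log2 of the 75th percentile over non-control probes was computed on each array, 2635 outlier spots were left out, and no spot was saturated. The number of arrays, 3 a group, limits the precision. The 9 groups were fitted together in limma 3.58.1 (R 4.3.3, lmFit and eBayes, 18 residual degrees of freedom), with Benjamini-Hochberg adjustment over all 29668 to 31174 probes tested in a comparison. Limma replaced the methods' t-test because of 3 pools a group, and the script was tested on simulated data. Named genes were all members, from each other list up to 4 called genes of smallest p per comparison, and the 3 genes of highest correlation per member probe, of which some are printed. The members and lists were chosen with earlier results of these data known. The labels do not say that replicate numbers pair pools. Deviations of same-numbered pools correlated above 0.1 for every number in STZ against control prefrontal cortex alone (0.494, 0.474 and 0.716). Same-numbered pools share a slide there, so a pairing of pools and the slide cannot be told apart. Alternatives covered scaling, background, filters, tests, slides, array weights, the replicate block and each pool left out. Other marker lists (thalamus and habenula, astrocytes, microglia, endothelium, meninges) had 0 genes called in GK against control in hippocampus, prefrontal cortex and striatum, except 1 thalamic or habenular gene lower in prefrontal cortex and 1 microglial gene lower in hippocampus.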

Additional observations from a re-analysis of the deposited data

Results flagged for a closer look

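The fall of Colq in GK against control rats was larger in striatum than in hippocampus, by 1.29 on the log2 scale (SE 0.20, adjusted p = 0.0035 by limma), which is a difference between regions in the same contrast. All 3 GK pools were below all 3 control pools in either region. The difference ran from 1.06 to 1.52 over 28 alternative settings, and its call was lost in 4 of them: normexp (adjusted p = 0.77), only these groups fitted (0.17), the replicate block (0.34) and slide as a fixed block (0.060). With 3 pools a group, no test for single outlying samples was run.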

How the results depend on the processing

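Colq in GK against control rats kept its sign under all alternatives, from -0.70 to -0.45 in hippocampus, -1.19 to -0.33 in prefrontal cortex and -2.16 to -1.51 in striatum. Its call was lost in prefrontal cortex with normexp, the methods' t-test after adjustment and the replicate block (0 members called each), and in striatum with the latter pair (0). There, slide as a fixed block gave 2 and leaving out slide 6 gave 4. Without the 2-fold threshold GK hippocampus had 1, GK against STZ hippocampus 2, striatum against hippocampus 6 and prefrontal cortex against hippocampus 4. STZ against control striatum had 2 with array weights. GK against STZ prefrontal cortex had 0 with 50th percentile scaling, quantile normalization, normexp, the adjusted t-test and the replicate block, and 2 with array weights. GK against STZ striatum had 1 with quantile normalization, no filter or only these regions, 0 with normexp or the adjusted t-test, and 4 with only these groups, the unadjusted t-test, the replicate block or without slide 6. Striatum against hippocampus had 5 with no filter and 1 with the adjusted t-test, and striatum against prefrontal cortex 1 with that test and 2 within slide 6. Prefrontal cortex against hippocampus had 2 with quantile normalization and 0 with normexp, either t-test, the replicate block, slide as a random block, array weights or without slide 6. The Colq difference between hippocampus and striatum lost its call (0) with normexp, only these groups, the replicate block and the fixed slide block, and 2 members were called without slide 6. That between prefrontal cortex and striatum gave 1 without slide 6 and 1 with array weights. With each pool left out in turn, counts ran from 1 to 2 in GK striatum, 0 to 1 in GK against STZ prefrontal cortex, 1 to 1 in GK against STZ striatum, 3 to 4 in both striatal region comparisons and 0 to 2 in prefrontal cortex against hippocampus. Chrm1 A_43_P15593 reversed from -0.75 to 0.010 with normexp. The cause was not tested for any of these. In STZ against control prefrontal cortex, where same-numbered pools share a slide, the replicate block left the member count at 0 and took that of all probes from 303 to 19. Pairing and slide cannot be told apart there. Control striatum and prefrontal cortex pools 2 and 3, which share slides 5 and 6, also deviated together (0.548 and 0.598). Their pools of number 1, on slides 4 and 7, did not (-0.18). Dim probes (Chat, Chrm2, Chrm5) limit what their values can show.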

Other observations

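The genes beside Colq were looked at after its values were seen. Of the 3 nearest protein-coding genes on each side of Colq in the RefSeq table (Sh3bp5, Mettl6 and Eaf1, then Hacl1, Btd and Ankrd28), 5 are on the array with 7 probes. In GK against control rats 0 of their 21 tests passed in limma, 1 (Eaf1 in striatum) had an unadjusted p under 0.05, and the differences ran from -0.22 for Mettl6 to 0.70 for Eaf1, both in striatum (adjusted p = 0.19 and 0.054).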
